A study of Mus musculus with 6 samples.

Results

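The immunoglobulin variable (V) segments whose RNA was counted in mouse liver are described here across 6 libraries. They are the rows of the count table whose symbol starts with Ighv, Igkv or Iglv and whose raw counts summed to 20 or more over all libraries. This left 148 segments of 346 V segment rows, in a table of 56674 rows, with 73 segments of the heavy chain, 72 of the kappa light chain and 3 of the lambda light chain. The segments were selected on their summed counts, so that they were detected is not a result. The study asked whether long exposure to polyethylene microplastic (PE-MP) alters gene expression in the liver of male C57BL/6 mice. One group of 3 libraries came from mice given chow that contained PE-MP and the other of 3 libraries from mice given normal chow, both labelled 71 weeks. The labels do not give the dose of PE-MP, the cage or the litter, and they leave unsaid whether different animals gave the libraries. The p-values therefore describe library-to-library spread alone, which may be technical. Liver RNA was poly(A) selected and made into libraries with a kit that keeps the strand.

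An antibody is built from heavy and light chains, and the part of each chain that binds antigen is encoded by a V segment that is joined to short D and J segments as a B cell matures. The loci hold many V segments that differ in sequence, a B cell uses one heavy and one light chain combination, and its descendants inherit that choice. Plasma cells, which secrete antibody, carry large amounts of this RNA, and a tissue in which a few expanded clones dominate has a few dominant V segments. Liver is rich in blood and holds B cells and some plasma cells among its hepatocytes.

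The segments that led a library are shown first, because the share of the largest segment is one of the measures described here. Sequences are the last 300 bases of the coding part of the germline segment from the GENCODE M21 annotation (build GRCm38), 5′ to 3′ on the coding strand, on chromosome 6 for kappa, chromosome 12 for heavy and chromosome 16 for lambda segments. Capitals mark bases that differ from the most similar other annotated segment of the same locus. The germline sequence is shown, not that of the rearranged RNA in these livers. Igkv5-39 led PE-MP library 1 and normal chow library 2, and differs from Igkv5-45 at 25 of the bases shown. Iglv1 led PE-MP library 2 and differs from Iglv2 at 8. Igkv3-4 led PE-MP library 3 and normal chow library 3, and differs from Igkv3-3 at 19. Ighv1-53 led normal chow library 1 and differs from Ighv1-55 at 15.
Igkv5-39: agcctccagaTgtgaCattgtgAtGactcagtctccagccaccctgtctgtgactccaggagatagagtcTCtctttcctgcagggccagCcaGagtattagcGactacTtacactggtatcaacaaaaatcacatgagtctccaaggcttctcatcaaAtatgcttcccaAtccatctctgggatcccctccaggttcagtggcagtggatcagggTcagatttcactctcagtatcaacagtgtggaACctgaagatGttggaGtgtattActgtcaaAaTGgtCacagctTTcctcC
Iglv1: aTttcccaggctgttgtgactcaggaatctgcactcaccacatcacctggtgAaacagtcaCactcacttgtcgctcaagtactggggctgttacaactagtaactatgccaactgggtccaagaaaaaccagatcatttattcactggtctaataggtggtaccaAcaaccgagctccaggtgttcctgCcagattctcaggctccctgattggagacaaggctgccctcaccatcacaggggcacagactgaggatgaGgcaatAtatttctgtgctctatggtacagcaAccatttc
Igkv3-4: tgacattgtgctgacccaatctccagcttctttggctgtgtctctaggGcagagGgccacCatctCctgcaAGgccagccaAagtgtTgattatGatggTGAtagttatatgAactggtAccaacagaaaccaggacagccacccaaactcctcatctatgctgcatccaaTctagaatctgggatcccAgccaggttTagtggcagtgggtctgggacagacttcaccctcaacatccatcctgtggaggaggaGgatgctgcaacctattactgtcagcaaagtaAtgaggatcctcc
Ighv1-53: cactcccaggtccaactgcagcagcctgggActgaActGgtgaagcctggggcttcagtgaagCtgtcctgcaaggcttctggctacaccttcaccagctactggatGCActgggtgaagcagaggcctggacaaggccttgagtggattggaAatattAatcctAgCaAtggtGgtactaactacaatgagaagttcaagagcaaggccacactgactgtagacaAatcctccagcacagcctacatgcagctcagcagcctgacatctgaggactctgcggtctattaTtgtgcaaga

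How the authors' counting treated reads that fit more than 1 segment is not stated, so the closest pairs that involve one of the 10 largest segments are also shown. Ighv1-72 and Ighv1-62-3 differ at 3 of 351 bases (99.1% identical), and Igkv3-10 and Igkv3-5 at 6 of 359 (98.3% identical). The split of counts within each pair is uncertain for this reason. Of the 146 segments with an annotated coding sequence, 75 were at least 95% identical to another segment and 13 at least 98%, with a median identity of 95.3% to the nearest.
Ighv1-72: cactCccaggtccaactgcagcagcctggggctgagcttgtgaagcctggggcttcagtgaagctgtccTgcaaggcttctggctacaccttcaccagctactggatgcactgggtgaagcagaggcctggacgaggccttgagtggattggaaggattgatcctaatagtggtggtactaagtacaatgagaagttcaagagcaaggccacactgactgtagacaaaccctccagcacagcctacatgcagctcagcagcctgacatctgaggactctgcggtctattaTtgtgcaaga
Ighv1-62-3: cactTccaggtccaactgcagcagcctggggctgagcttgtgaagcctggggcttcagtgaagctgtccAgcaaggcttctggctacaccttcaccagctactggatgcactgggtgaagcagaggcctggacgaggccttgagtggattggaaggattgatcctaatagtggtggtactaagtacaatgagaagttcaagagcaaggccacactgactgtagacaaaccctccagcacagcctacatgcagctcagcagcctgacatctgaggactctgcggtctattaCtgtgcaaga
Igkv3-10: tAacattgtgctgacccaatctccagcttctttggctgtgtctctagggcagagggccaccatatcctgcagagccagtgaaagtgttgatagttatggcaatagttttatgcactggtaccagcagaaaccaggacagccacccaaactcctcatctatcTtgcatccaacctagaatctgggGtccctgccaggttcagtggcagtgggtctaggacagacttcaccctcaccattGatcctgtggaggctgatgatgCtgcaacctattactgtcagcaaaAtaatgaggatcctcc
Igkv3-5: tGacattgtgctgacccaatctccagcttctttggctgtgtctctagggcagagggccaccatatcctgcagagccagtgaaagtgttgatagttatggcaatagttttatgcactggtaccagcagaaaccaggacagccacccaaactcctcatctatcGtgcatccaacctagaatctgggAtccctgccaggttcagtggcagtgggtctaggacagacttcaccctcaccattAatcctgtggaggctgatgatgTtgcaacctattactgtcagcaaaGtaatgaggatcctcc

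The 148 segments held 26175 counts, 98.4% of the 26609 counts in all V segment rows. Of the remaining rows, 148 had no count in any library and 50 had between 1 count and the limit. Just inside the limit were Ighv13-2 with 20 counts and Ighv1-54 and Ighv2-6 with 21 each. Just outside were Igkv1-133 with 19 and Ighv9-2 and Ighv9-4 with 18 each. The annotation types 146 of the segments as functional V genes and 2 (Ighv1-62 and Igkv4-73) as pseudogenes. Among functional V genes of the table, 72 of 113 heavy chain segments (63.7%), 71 of 100 kappa segments (71.0%) and all 3 lambda segments reached the limit, against 2 of 129 V pseudogenes (1.55%). The median segment had 92.5 counts in all, the 3 largest (Igkv5-39, Ighv1-53 and Igkv3-4) had 2027, 1679 and 1231, and the 10 largest took 40.1% of all V segment counts.

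Total counts per library ran from 75176645 to 91898953 under PE-MP chow and from 68357478 to 112566641 under normal chow. The summed share of hepatocyte markers (Alb, Apoa1, Ttr, Serpina1c and Cyp2e1) was 80808.5, 83988 and 82986 CPM (counts scaled to a library's total, as CPM throughout) in PE-MP libraries 1, 2 and 3 and 75540, 54322 and 67808 CPM in normal chow libraries 1, 2 and 3, so the labelled tissue's markers were present in every library. Normal chow library 2 had the lowest hepatocyte share of the 6.

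V segments took a smaller share of total counts in every PE-MP library than in any normal chow library. All V segments together had 2157, 958 and 2251 counts in PE-MP libraries 1, 2 and 3 and 7566, 9157 and 4086 in normal chow libraries 1, 2 and 3. As CPM this was 24.4, 12.7 and 24.5 under PE-MP chow and 99.7, 134 and 36.3 under normal chow. The groups did not overlap, although normal chow library 3 lay nearer to the PE-MP libraries than to normal chow library 2. The mean was 20.6 ± 6.77 CPM under PE-MP chow and 90.0 ± 49.5 CPM under normal chow (SD, n = 3 each). On the log2 scale the difference was -1.997, or 3.99-fold lower under PE-MP chow (two-sided exact permutation test, p = 0.1). With 3 libraries a chow no smaller p can be reached. Across the 24 per-library measures tested in the same way the Benjamini-Hochberg adjusted value was 0.218. Without normal chow library 2 the log2 difference was -1.61, and without normal chow library 3 it was -2.55. With total counts scaled by the trimmed mean of M-values (TMM) factors it was -2.30. In whole liver, fewer antibody-producing cells, less V segment RNA per cell and a technical difference between libraries cannot be told apart.

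**Figure D1:**
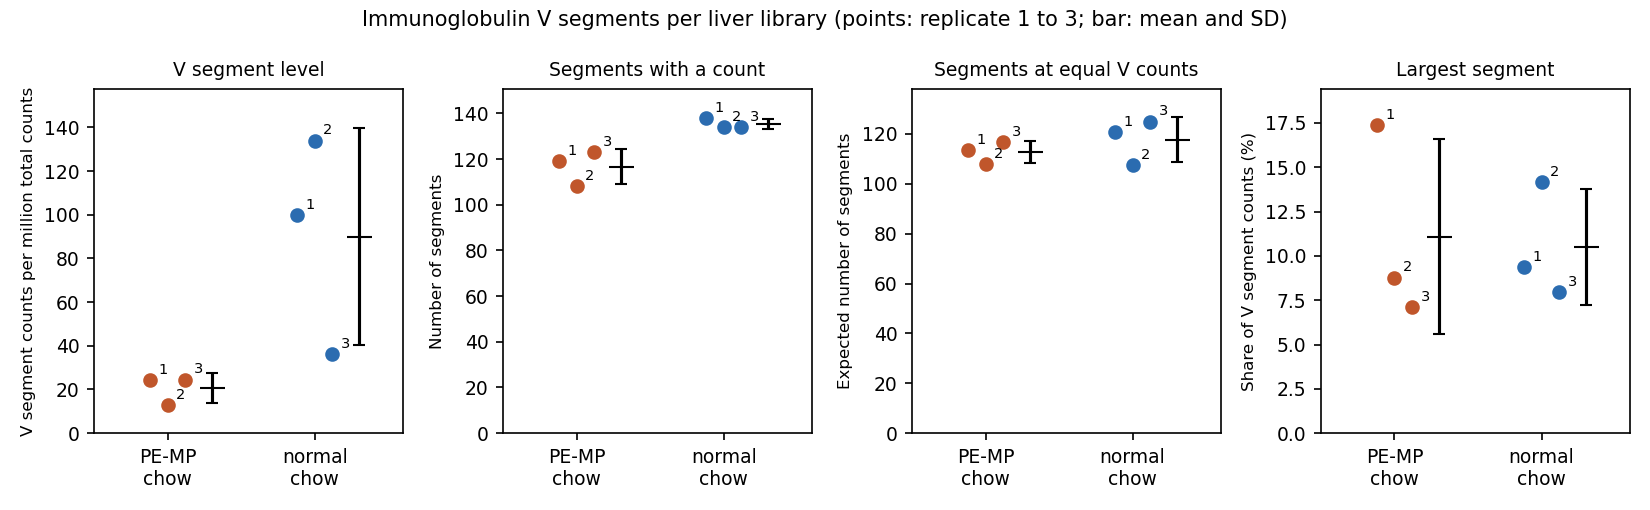
Level, number and concentration of V segments in each liver library, by chow, with points for replicates 1 to 3 and bars for the mean and SD. The level ran from 12.7 to 24.5 CPM under PE-MP chow and from 36.3 to 134 CPM under normal chow, whereas the share of the largest segment overlapped between chows.

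Each of the 3 loci lay lower under PE-MP chow. Heavy chain segments had 7.51, 3.76 and 7.08 CPM in PE-MP libraries 1, 2 and 3 and 38.9, 46.4 and 11.9 CPM in normal chow libraries 1, 2 and 3. Kappa segments had 16.3, 7.76 and 16.6 CPM under PE-MP chow and 57.2, 84.4 and 23.2 CPM under normal chow. Neither locus overlapped between chows (exact permutation p = 0.1 for each). Lambda segments, few in the mouse, had 0.578, 1.22 and 0.794 CPM under PE-MP chow and 3.597, 3.13 and 1.23 CPM under normal chow. Here PE-MP library 2 and normal chow library 3 were almost level. Light chain counts exceeded heavy chain counts in every library, by 2.25, 2.39 and 2.46 times in PE-MP libraries 1, 2 and 3 and by 1.56, 1.88 and 2.05 times in normal chow libraries 1, 2 and 3. The ratio averaged 2.37 ± 0.104 under PE-MP chow and 1.83 ± 0.249 under normal chow (SD, n = 3 each; exact permutation p = 0.1, adjusted 0.218). The ratio of kappa to lambda counts overlapped, at 28.3, 6.34 and 20.9 under PE-MP chow and 15.9, 27.0 and 18.9 under normal chow (exact permutation p = 0.9).

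Fewer segments were detected under PE-MP chow, but the difference became small when libraries were brought to equal V segment counts. At least 1 count was present for 119, 108 and 123 of the 148 segments in PE-MP libraries 1, 2 and 3 and for 138, 134 and 134 in normal chow libraries 1, 2 and 3. The groups did not overlap (exact permutation p = 0.1, mean difference -18.7 segments). At least 10 counts were present for 55, 33 and 65 segments under PE-MP chow and for 114, 104 and 101 under normal chow. Detection depends on how many V segment counts a library has, and PE-MP library 2 had the fewest, 958. Thinned to 958 counts each, the expected number was 114, 108 and 117 segments in PE-MP libraries 1, 2 and 3 and 121, 107 and 125 in normal chow libraries 1, 2 and 3. These overlapped, with a mean difference of -4.90 segments (exact permutation p = 0.5). Normal chow library 2 then had the lowest number of the 6, although it had the most V segment counts.

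The share of the largest segment overlapped between chows. Igkv5-39 took 17.4% of V segment counts in PE-MP library 1 (95% exact binomial interval 15.8 to 19.1%). Iglv1 took 8.77% in PE-MP library 2 (7.05 to 10.7%) and Igkv3-4 took 7.11% in PE-MP library 3 (6.08 to 8.25%). Under normal chow Ighv1-53 took 9.37% in library 1 (8.72 to 10.05%), Igkv5-39 took 14.2% in library 2 (13.5 to 14.9%) and Igkv3-4 took 7.95% in library 3 (7.14 to 8.83%). The intervals treat each count as an independent draw and leave out spread between libraries. Reads without molecular identifiers are not independent molecules, so the intervals may be too narrow even for counting error. In V segment rows a value of 1 occurred 18 times and a value of 3 occurred 61 times, whereas over all rows of the table a value of 1 occurred 9388 times and a value of 3 occurred 6247 times. Single counts were thus rarer than triple counts among V segments, which bears on any count of segments detected. The mean share was 11.1 ± 5.52% under PE-MP chow and 10.5 ± 3.25% under normal chow (SD, n = 3 each; exact permutation p = 0.9). Its direction turned without PE-MP library 1, where the difference was -2.56 percentage points, and without normal chow library 3, where it was -0.68.

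Other measures of how evenly counts were spread over segments overlapped too. The 10 largest segments of a library took 44.9, 34.0 and 40.7% of its V segment counts in PE-MP libraries 1, 2 and 3 and 42.2, 53.9 and 34.8% in normal chow libraries 1, 2 and 3. The effective number of segments, 1 over the sum of squared shares, was 22.2, 46.0 and 41.1 under PE-MP chow and 35.1, 21.7 and 47.5 under normal chow (exact permutation p = 0.9). PE-MP library 1 and normal chow library 2 were thus the most concentrated, and Igkv5-39 led both. To reach 50% of V segment counts took the 14, 21 and 16 largest segments under PE-MP chow and the 15, 9 and 20 largest under normal chow. Within the heavy chain alone the effective number was 17.3, 24.6 and 28.4 under PE-MP chow and 12.7, 10.1 and 24.8 under normal chow, which overlapped (exact permutation p = 0.3).

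**Figure D2:**
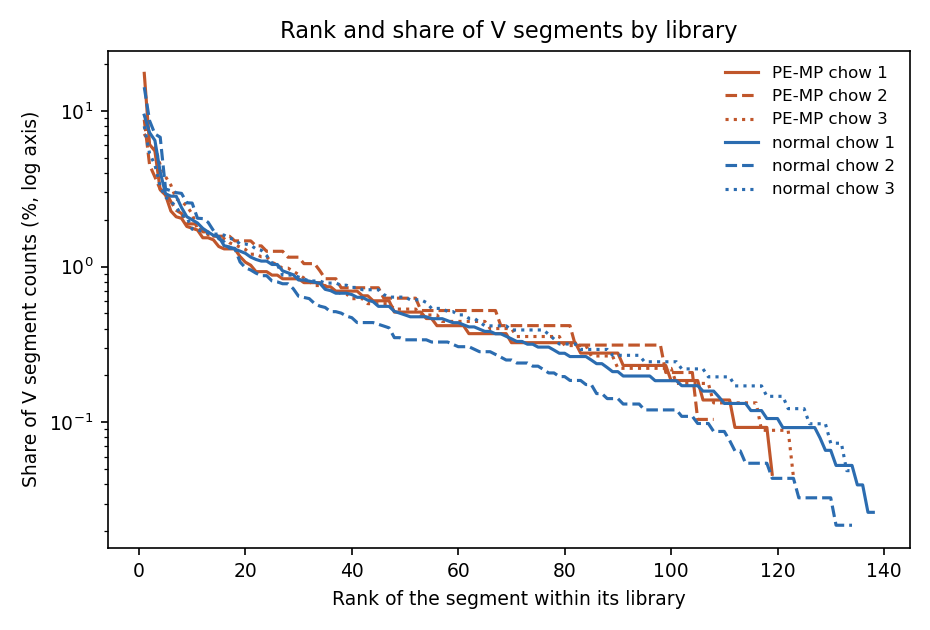
Share of V segment counts (log axis) against the rank of a segment within its library, 1 line per library. Normal chow library 2 lay lowest over most ranks, after its 10 largest segments had taken 53.9% of the counts, and the other lines ran close together.

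Among heavy chain segments, Ighv1-53 was the largest in 4 of the 6 libraries. It had 0.759, 0.399 and 0.424 CPM in PE-MP libraries 1, 2 and 3 and 9.34, 9.51 and 1.63 CPM in normal chow libraries 1, 2 and 3, with no overlap. In edgeR its log2 ratio was -3.98 with an SE of 0.74, which did not pass (adjusted p = 0.128). Ighv1-26 led PE-MP library 1 within the heavy chain, with 1.35, 0.279 and 0.598 CPM under PE-MP chow and 2.93, 3.99 and 0.755 CPM under normal chow, which overlapped. PE-MP library 3 was led within the heavy chain by Ighv1-42, at 61 counts, against 2 and 11 counts in PE-MP libraries 1 and 2 and 42, 3 and 17 in normal chow libraries 1, 2 and 3. Ighv1-72, known as the heavy chain segment of mouse antibodies to the hapten nitrophenyl, had 8, 12 and 22 counts under PE-MP chow and 126, 619 and 66 counts under normal chow. Its near-copy Ighv1-62-3 had 0, 0 and 8 counts under PE-MP chow and 36, 120 and 17 under normal chow. Both were highest in normal chow library 2 and lowest in PE-MP libraries 1 and 2.

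Among kappa segments, Igkv5-39 had the most counts. It had 4.25, 0.160 and 1.502 CPM in PE-MP libraries 1, 2 and 3 and 1.90, 19.0 and 0.542 CPM in normal chow libraries 1, 2 and 3. The chows overlapped, since PE-MP library 1 exceeded normal chow libraries 1 and 3. Igkv3-4 had 0.702, 0.120 and 1.74 CPM under PE-MP chow and 6.43, 2.74 and 2.89 CPM under normal chow, with no overlap. Igkv10-96 had 0.555, 0.293 and 1.10 CPM under PE-MP chow and 7.22, 2.57 and 0.879 CPM under normal chow. The largest kappa segment of PE-MP library 2 was Igkv1-110, with 43 counts there, and that of normal chow library 1 was Igkv10-96. Igkv3-2 had 22, 3 and 1 counts under PE-MP chow and 10, 790 and 87 under normal chow, so that 90.6% of its summed CPM came from normal chow library 2. Igkv3-10 had 39, 5 and 15 counts under PE-MP chow and 306, 288 and 66 under normal chow. Its near-copy Igkv3-5 had 14, 3 and 9 counts under PE-MP chow and 214, 281 and 107 under normal chow, and neither overlapped between chows. The lambda segment Iglv1 had 0.498, 1.12 and 0.642 CPM under PE-MP chow and 2.82, 2.28 and 1.01 CPM under normal chow. Its chows overlapped, and it was the most even over libraries of the 10 largest segments, with 33.7% of its summed CPM in 1 library.

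**Figure D3:**
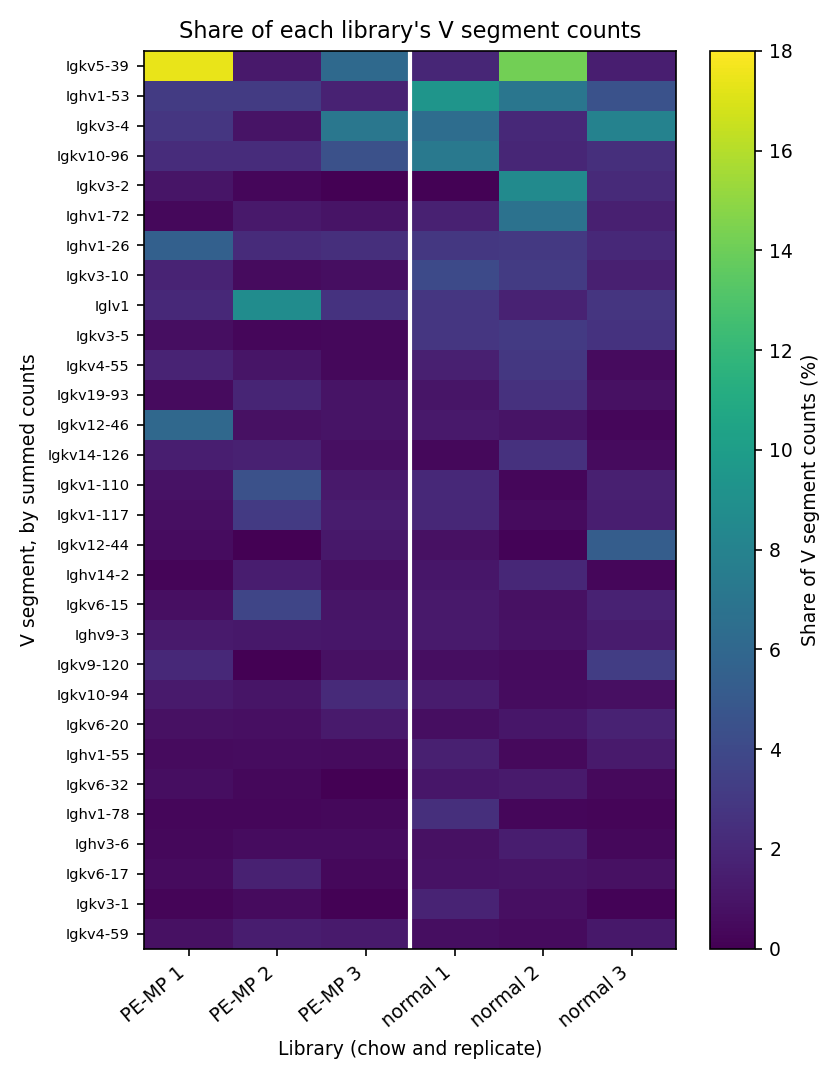
Share of each library's V segment counts taken by the 30 segments with the highest summed counts, PE-MP libraries left of normal chow libraries. Igkv5-39 stands out in PE-MP library 1 (17.4%) and normal chow library 2 (14.2%), and Igkv3-2 in normal chow library 2 (8.63%).

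Many segments owed most of their counts to 1 library. A count in all 6 libraries was found for 76 of the 148 segments, and in 5, 4, 3, 2 and 1 libraries for 34, 23, 9, 5 and 1. For 60 segments more than 50% of the summed CPM came from a single library, which was PE-MP library 3 for 3 of them and no other PE-MP library. It was normal chow library 1 for 19, library 2 for 32 and library 3 for 6. More than 80% came from 1 library for 5 segments. Igkv14-130 had 133 counts in PE-MP library 3, 3 in normal chow library 1 and 0 in the other 4. Ighv7-3 had 4 counts in PE-MP library 3 and 48 in normal chow library 1. Ighv5-2 had 2 counts in PE-MP library 3, 3 in normal chow library 2 and 36 in normal chow library 3. Ighv5-12 reached the limit through 23 counts in normal chow library 1 alone. These segments, like Igkv3-2, were chosen for this unevenness after their values were seen.

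Most segments had a lower mean under PE-MP chow, in each locus. The mean CPM was lower under PE-MP chow for 136 segments and higher for 12, with 65 lower and 8 higher in the heavy chain, 68 and 4 in kappa and 3 and 0 in lambda. Of the 12, Igkv14-130 and Igkv4-70 owed their higher mean to PE-MP library 3, where they had 133 and 85 counts. On the TMM scale 67 segments (45.3%) lay lower in every PE-MP library than in any normal chow library, where 10.8% of the 21486 rows with 20 or more counts did so. By CPM of total counts the number was 54 segments (36.5%), against 2.73% of rows. In the other direction there was 1 segment on either scale, against 14.0% of rows on the TMM scale and 31.9% by total counts. This was Ighv1-56, with 6, 4 and 26 counts in PE-MP libraries 1, 2 and 3 and 2, 2 and 0 in normal chow libraries 1, 2 and 3. Segments of 1 library share its tissue sample and are not independent of each other.

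**Figure D4:**
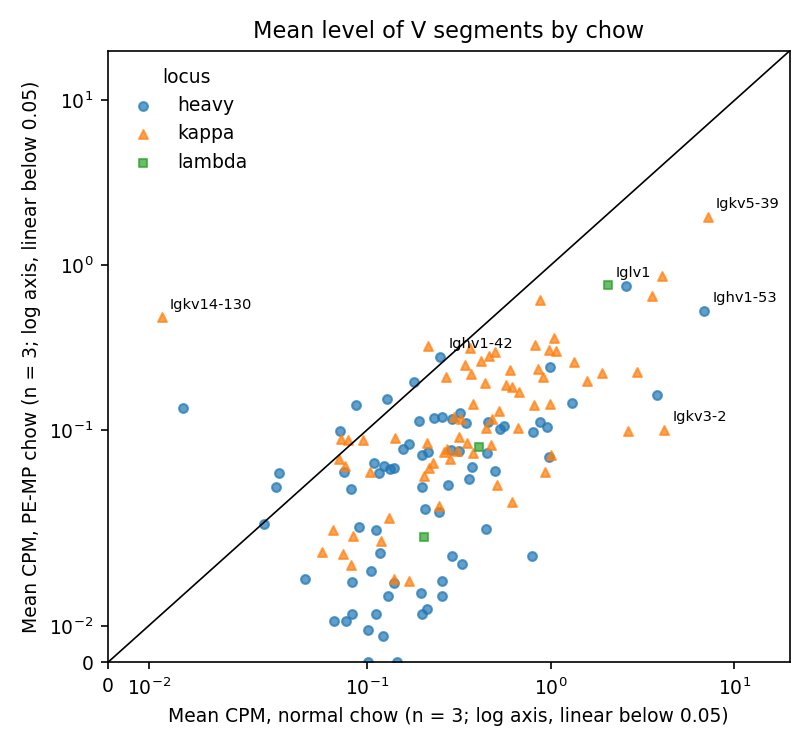
Mean CPM of each of the 148 V segments under PE-MP chow (vertical) against normal chow (horizontal), n = 3 libraries each, on axes that are logarithmic above 0.05 and linear below. Of the points, 136 lie below the line of equal means and 12 above it.

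No segment passed the edgeR threshold singly. In edgeR's quasi-likelihood test, fitted on all genes that passed the expression filter, 0 of 81 tested segments were called lower and 0 higher at an adjusted p under 0.05, where 0% and 0.00554% of 18043 genes were called. Of the 81, 49 had an unadjusted p under 0.05 in the lower direction and 0 in the higher, against 8.82% and 9.10% of genes. For 63 of the 81, fewer than 3 PE-MP libraries lay over the count limit of the filter, so these segments did not pass on PE-MP libraries alone. For 22 of the 81, fewer than 3 normal chow libraries lay over it. The count over tested segments is therefore read as a description only. With no filter all 148 were fitted. Then 70 had an unadjusted p under 0.05 in the lower direction and 0 in the higher, against 5.37% and 7.10% of 30801 genes. In that fit 141 of 148 segments had a negative log2 fold change and the median was -2.11, whereas among rows with 20 or more counts 46.3% were negative and the median was 0.05. Of the 145 segments with a DESeq2 adjusted p, 43 were called lower and 0 higher, against 2.55% and 2.62% of 21195 genes with an adjusted p. Without normal chow library 2, edgeR called 5 of 97 tested segments lower (Igkv3-5, Igkv8-21, Ighv1-55, Ighv1-76 and Ighv1-72) and 0 higher, against 3.27% and 2.38% of 19026 genes. In the whole set Ighv1-76 had 0 PE-MP libraries over the count limit of the filter and Igkv3-5 had 1, against 3 normal chow libraries each. The count of 5 is thus a description only as well, and its share lies near that over all genes.

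The smallest p in the edgeR fit on all libraries belonged to Igkv3-5, whose log2 ratio was -4.99 with an SE of 0.73 (adjusted p = 0.105). Igkv8-21 followed, with 11, 7 and 12 counts in PE-MP libraries 1, 2 and 3 and 35, 40 and 43 in normal chow libraries 1, 2 and 3. Its log2 fold change was -2.32 ± 0.38 (edgeR adjusted p = 0.123). Ighv1-55 had 11, 6 and 12 counts under PE-MP chow and 118, 40 and 53 under normal chow, with a log2 fold change of -3.22 ± 0.56 (edgeR adjusted p = 0.124). In all 3 segments every PE-MP library lay below every normal chow library. They were chosen by their small p between the same chows, so this adds no support. The 1 tested segment with a positive log2 fold change was Igkv4-70 (0.26 ± 1.26), through PE-MP library 3.

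V segments fall into families of similar sequence, and the mix of families was compared within each locus. The family Ighv1, which spans the distal part of the heavy chain locus, held 40 of the 73 heavy chain segments. It took 66.2, 56.2 and 63.4% of heavy chain V counts in PE-MP libraries 1, 2 and 3 and 70.9, 73.4 and 63.6% in normal chow libraries 1, 2 and 3. In kappa, Igkv3 took 10.9, 5.49 and 13.2% of the V counts under PE-MP chow and 27.7, 28.4 and 24.1% under normal chow, without overlap. The mean was 9.89 ± 3.98% under PE-MP chow and 26.7 ± 2.31% under normal chow (SD, n = 3 each; exact permutation p = 0.1, adjusted 0.96 over 30 families). Igkv5 took 28.8, 6.86 and 12.1% under PE-MP chow and 5.94, 23.7 and 4.33% under normal chow, and Igkv5-39 was its largest member. Of the 30 heavy and kappa families, 27 overlapped between chows, 1 (Igkv3) lay lower in every PE-MP library and 2 lay higher. These were Ighv4, at 1.51, 6.36 and 1.54% under PE-MP chow and 0.474, 0.126 and 1.19% under normal chow, and Ighv10, at 1.21, 2.47 and 1.997% under PE-MP chow and 0.610, 0.252 and 1.19% under normal chow. Ighv4 rested on a single segment and on 72 counts over all libraries. For Ighv4 and Ighv10 the exact permutation p was 0.1, adjusted 0.96, as for Igkv3. The 3 families are therefore given as a description only.

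The position of segments along their locus was compared in 3 groups of nearly equal size, ordered from the J segments outward by the annotation. Distal heavy chain segments took 39.5, 32.2 and 38.7% of heavy chain V counts in PE-MP libraries 1, 2 and 3 and 55.5, 57.1 and 43.8% in normal chow libraries 1, 2 and 3. Middle segments took 36.5, 34.6 and 36.7% under PE-MP chow and 23.3, 22.0 and 29.1% under normal chow. Neither overlapped between chows (exact permutation p = 0.1 for each, adjusted 0.3 over 6 groups). Along the heavy chain locus 23 of 38 proximal, 22 of 38 middle and 27 of 37 distal segments reached the limit of 20 counts. For kappa the numbers were 24 of 34, 25 of 33 and 22 of 33, and the shares of all 3 groups overlapped between chows.

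Segments known to pair in mouse antibodies to phosphatidylcholine, made by B-1 cells, were looked at after their values had been seen. Ighv11-2 had 15, 5 and 5 counts in PE-MP libraries 1, 2 and 3 and 24, 138 and 7 in normal chow libraries 1, 2 and 3. Its usual partner Igkv14-126 had 33, 16 and 17 counts under PE-MP chow and 28, 234 and 22 under normal chow. Both were highest in normal chow library 2. The other known pair, Ighv12-3 and Igkv4-91, had 0 and 10 counts in that library. In normal chow libraries 1 and 3, Ighv12-3 had 20 and 10 counts and Igkv4-91 had 36 and 52. In PE-MP libraries 1, 2 and 3, Ighv12-3 had 5, 0 and 3 counts and Igkv4-91 had 4, 6 and 75. Which heavy and light chains come from the same cell cannot be read from these counts.

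The constant genes encode the rest of each chain and should travel on the same RNA as the V segments. In kappa, and summed over the heavy chain, they did not follow the V segments. Igkc, the kappa constant gene, had 1648, 768 and 2162 counts in PE-MP libraries 1, 2 and 3 and 10, 7546 and 12 in normal chow libraries 1, 2 and 3. The ratio of kappa V counts to Igkc counts was 0.876, 0.759 and 0.706 in PE-MP libraries 1, 2 and 3 and 434, 0.764 and 217 in normal chow libraries 1, 2 and 3. V segment counts of the heavy chain were 0.176, 0.276 and 0.261 times the summed heavy chain constant counts under PE-MP chow and 1.82, 1.70 and 0.908 times under normal chow. This ratio averaged 0.238 ± 0.0537 under PE-MP chow and 1.47 ± 0.494 under normal chow (SD, n = 3 each; exact permutation p = 0.1, adjusted 0.3 over 12 ratios and shares). For lambda the ratio of V to constant counts was 0.560, 1.74 and 0.584 in PE-MP libraries 1, 2 and 3. It was 1.67, 0.539 and 0.673 in normal chow libraries 1, 2 and 3, which overlapped. The 12 constant genes summed to 62.3, 24.6 and 52.0 CPM under PE-MP chow and 23.7, 144 and 15.0 CPM under normal chow, which overlapped. A lower level under PE-MP chow in every library was thus seen for V segments and not for the summed constant genes, and the cause was not tested. The counter is not named in the sources used here, so how reads were assigned within these loci is unknown. This limits the reading of both the V segment levels and the constant gene levels.

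**Figure D5:**
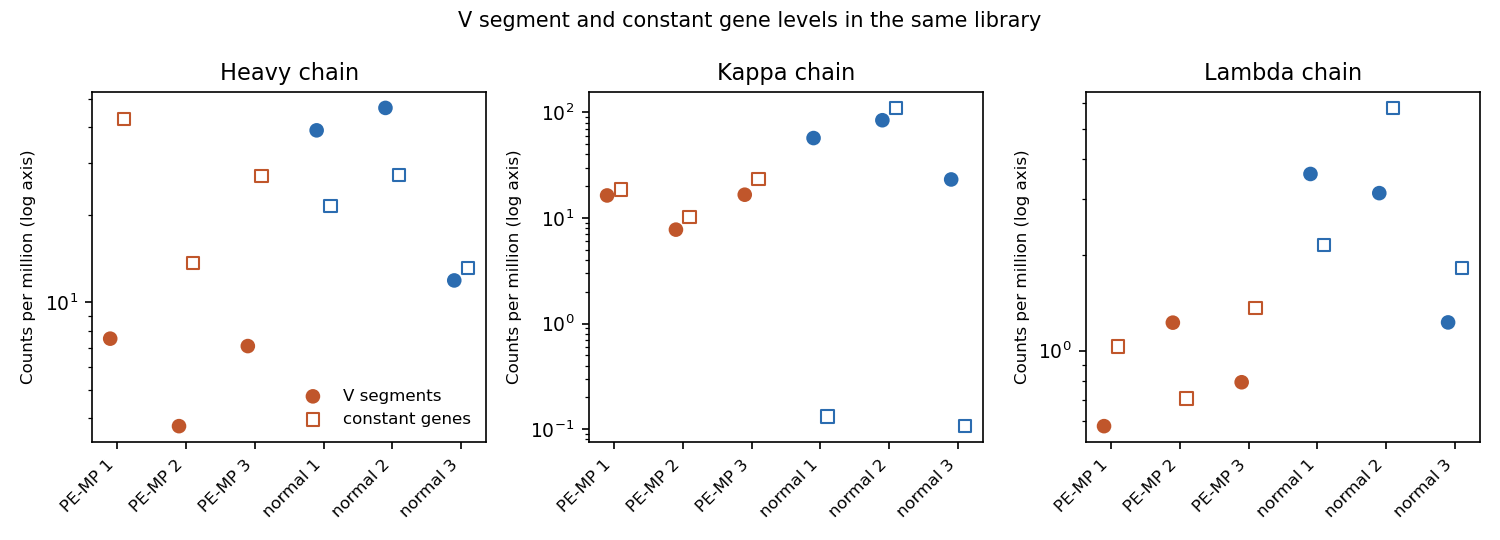
V segment level (filled circles) and constant gene level (open squares) in CPM on log axes for heavy, kappa and lambda chains, PE-MP libraries left of normal chow libraries. Igkc stood near the kappa V segments in 4 libraries and at 0.132 and 0.107 CPM in normal chow libraries 1 and 3.

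Single constant genes were as uneven. By CPM, Ighg1, Ighg2b, Ighg3 and Iglc2 lay lower in every PE-MP library than in any normal chow library, and no constant gene lay higher in that way. Ighm, of the class IgM, had 3211, 51 and 1105 counts in PE-MP libraries 1, 2 and 3 and 64, 68 and 94 in normal chow libraries 1, 2 and 3 (log2 fold change 3.92 ± 1.27, edgeR adjusted p = 0.208 and DESeq2 adjusted p = 0.0371). Igha, of IgA, had 30, 625 and 702 counts under PE-MP chow and 118, 44 and 65 under normal chow. The IgG genes Ighg1, Ighg2b and Ighg3 had log2 fold changes of -2.20 ± 0.50, -2.76 ± 0.74 and -3.37 ± 1.17 (edgeR adjusted p = 0.137, 0.171 and 0.225), and Ighg2c one of 0.25 ± 0.52. Ighg2b took 3.59, 7.80 and 7.59% of heavy chain constant counts under PE-MP chow and 14.0, 64.7 and 33.8% under normal chow. Ighd, of the IgD of naive B cells, had 1.62, 2.12 and 2.69 CPM under PE-MP chow and 2.28, 4.81 and 2.23 CPM under normal chow. The lambda constant gene Iglc2 had 0.453, 0.532 and 1.16 CPM under PE-MP chow and 1.96, 3.75 and 1.29 CPM under normal chow, without overlap. Iglc1, Iglc3 and Ighe had 9, 6 and 16, then 42, 7 and 2, then 3, 4 and 12 counts in PE-MP libraries 1, 2 and 3. In normal chow libraries 1, 2 and 3 they had 6, 103 and 5, then 8, 38 and 55, then 12, 0 and 21 counts. DESeq2 called Ighg1, Ighg2b and Iglc2 lower (adjusted p = 0.00183, 0.000796 and 0.00536) as well as Ighm higher. Of the 11 constant genes tested, 0 were called by edgeR, 8 had a negative log2 fold change and the median was -1.23, beside 0.02 over all genes.

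Genes of antibody secretion outside the loci were not used to choose the segments. Jchain, which joins IgM and IgA units, had 4.38, 3.63 and 0.631 CPM in PE-MP libraries 1, 2 and 3 and 26.9, 35.6 and 11.7 CPM in normal chow libraries 1, 2 and 3 (log2 fold change -3.38 ± 0.82, edgeR adjusted p = 0.150 and DESeq2 adjusted p = 2.2e-05). Mzb1, a chaperone of antibody assembly, had 0.261, 0.386 and 0.533 CPM under PE-MP chow and 2.32, 3.15 and 0.551 CPM under normal chow (log2 fold change -2.66 ± 0.65, edgeR adjusted p = 0.147 and DESeq2 adjusted p = 0.00151). Neither overlapped between chows, and both were lowest within normal chow in library 3, as the V segments were. Of the 11 tested genes of the antibody secretion list, edgeR called 0, 8 had a negative log2 fold change and the median was -0.47, while DESeq2 called Jchain and Mzb1 lower. Of the 7 tested plasma cell markers, edgeR called 0, 4 were negative and the median was -0.17. Prdm1, a regulator of plasma cell formation, lay in the other direction without overlap, at 0.408, 0.466 and 0.435 CPM under PE-MP chow and 0.264, 0.190 and 0.195 CPM under normal chow (log2 fold change 0.71 ± 0.33, edgeR adjusted p = 0.312 and DESeq2 adjusted p = 0.466). Hepatocytes also express several of these, such as Sdc1 and Xbp1, whose log2 fold changes were -0.17 ± 0.17 and 0.18 ± 0.15. By CPM Xbp1, like Prdm1, lay higher under PE-MP chow without overlap. It had 82.0, 72.2 and 94.9 CPM under PE-MP chow and 58.0, 50.2 and 69.5 CPM under normal chow. On that scale 31.9% of rows with 20 or more counts lay higher in this way. Tnfrsf17, the plasma cell receptor BCMA, was at 0 counts in all PE-MP libraries and normal chow library 2.

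Among genes of B cells, Cd79a, a part of the B cell receptor, had 2.04, 1.29 and 1.502 CPM in PE-MP libraries 1, 2 and 3 and 3.97, 3.94 and 2.26 CPM in normal chow libraries 1, 2 and 3, without overlap. Its log2 fold change was -1.37 ± 0.31 (edgeR adjusted p = 0.137 and DESeq2 adjusted p = 0.00377). Ms4a1, a surface protein of B cells that plasma cells lack, had 1.22, 1.01 and 1.57 CPM under PE-MP chow and 1.001, 3.45 and 0.657 CPM under normal chow, which overlapped (log2 fold change -0.74 ± 0.63, edgeR adjusted p = 0.565). Both genes were picked from a longer list with the values known, and Cd79a had the smallest edgeR p of that list. They do not stand for B cell genes as a whole. T cell markers, as those of another lymphocyte, overlapped between chows. The 5 markers (Cd3d, Cd3e, Cd3g, Trac and Trbc2) summed to 4.87, 2.06 and 3.79 CPM in PE-MP libraries 1, 2 and 3 and 3.64, 5.66 and 4.35 CPM in normal chow libraries 1, 2 and 3. Of the 5 tested, 0 were called by edgeR, 5 had a negative log2 fold change and the median was -0.53. PE-MP library 2 was the lowest of the 6 for V segments and for T cell markers. The part that lymphocyte content has in the V segment difference was not tested.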

How the data were processed

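Liver RNA of 6 libraries was sequenced, 3 per chow. The authors deposited raw counts per gene row, with no normalisation, per the file headers and the whole-number values. The submitters' processing notes name bcl2fastq and the build GRCm39. Not given in the sources used here are the aligner, the counter, its annotation and whether it used strand. The series table equalled all 6 per-library files on all 56674 rows. GENCODE M21 (build GRCm38) matched all 346 V segment rows and gave gene type, order and sequence; no coordinates are given.

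Segments, lists and tests were chosen with earlier results of these data known. Levels are CPM of total counts unless TMM is named. Per-library values were compared by two-sided exact permutation tests over libraries. Tests across genes used edgeR 4.0.16 under R 4.3.3 (quasi-likelihood, robust, TMM, default filter), adjusted over all genes by Benjamini-Hochberg at 0.05, on log2 ratios of PE-MP chow to normal chow, with DESeq2 1.42.0 as an alternative. Equal-count segment numbers are hypergeometric expectations at 958 counts. Identities came from global alignments in Biopython 1.88. The edgeR step was tested on simulated data. Genes named follow a rule (largest segments overall and per library and locus, those next to the limit, those with the smallest p, constant genes, Jchain and Mzb1); others are said to have been chosen after their values were seen or are members of lists. Summed markers of B cells and a few other values are not reported here.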

Additional observations from a re-analysis of the deposited data

How the results depend on the processing

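The lower level of V segments and the lower number of segments under PE-MP chow kept their direction under every alternative run, which were other limits for a segment, other denominators, no pseudogene rows, higher detection limits, equal V counts and leaving out each library. Leaving out 1 library gave log2 differences of -2.55 to -1.61 in level and differences of -21.8 to -14.3 in number of segments. In number the difference was -55.3 with a limit of 10 counts for detection, -3.67 for segments of at least 100 summed counts and -4.90 at equal V counts. The share of the largest segment changed direction within heavy chain segments (-6.77 percentage points) and within kappa segments (-1.24), and ran from -2.56 to 2.58 when 1 library was left out. The log2 fold change of Igkv5-39 turned positive without normal chow library 2 (0.44), and ran from -3.49 to 0.44 when 1 library was left out. The number of segments called lower was 43 of 145 by DESeq2 and 0 of 81 by edgeR. It ran from 0 to 5 when 1 library was left out of the edgeR fit. The number called higher was 0 in all settings. Over all genes edgeR called 1 higher and 0 lower, DESeq2 555 and 540, RLE factors 2 and 1, no filter 15 and 8, and an adjusted p of 0.1 24 and 29; leaving out 1 library gave 1 to 452 higher and 0 to 623 lower, the most without normal chow library 2. The cause was not tested. With the replicate number as a block the log2 difference in level was -1.997 (exact sign-flip p = 0.25, the smallest possible), that in number of segments -18.7 and that in the largest share 0.59, and 0 segments and 0 genes were called. Same-numbered deviations correlated at 0.00272, 0.0405 and 0.136, beside -0.148 to 0.120 for libraries with unlike numbers. No pairing was thus seen, but so few libraries cannot exclude it. Depth limits segments near 20 counts, for which 0 counts in a library are within counting error of a few counts.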

Other observations

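J segments, which every rearranged chain carries, were nearly uncounted. The 14 Ighj, Igkj and Iglj rows summed to 13, 13 and 13 counts in PE-MP libraries 1, 2 and 3 and 11, 14 and 11 in normal chow libraries 1, 2 and 3, beside 958 to 9157 V segment counts per library. V segments of the T cell receptor were counted far less often than those of antibodies. Of 178 rows, 39 had a count, and together they had 92, 12 and 82 counts in PE-MP libraries 1, 2 and 3 and 69, 82 and 71 in normal chow libraries 1, 2 and 3, with PE-MP library 2 apart from the others. Of the genes of V(D)J recombination and the pre-B cell receptor, Rag2, Vpreb2 and Igll1 had 0 counts in all libraries, and Rag1 had 3 counts in PE-MP library 3 alone. Others were counted. Dntt, which adds bases at the joints, had 24, 22 and 14 counts in PE-MP libraries 1, 2 and 3 and 31, 23 and 36 in normal chow libraries 1, 2 and 3. Vpreb1 had 2, 0 and 23 counts under PE-MP chow and 6, 9 and 4 under normal chow. Vpreb3 had 30, 18 and 30 counts under PE-MP chow and 64, 33 and 62 under normal chow (edgeR adjusted p = 0.148 and DESeq2 adjusted p = 0.0472).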
